A study of Arabidopsis thaliana with 12 samples.

Results

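PER7 (AT1G30870), PER35 (AT3G49960) and PER44 (AT4G26010) are 3 class III peroxidase genes of Arabidopsis thaliana. They were chosen by measured values, because their signal was far higher on the elongation-zone arrays of the mutant upb1-1 than on those of the line labelled as overexpressing UPB1, and are followed here across all 6 groups of root samples. Each gene had 1 probe set on the Affymetrix ATH1 array, so 3 of the 13286 genes with a named probe set of their own, and 3 of 22746 probe sets outside the controls, are described. In the comparison that chose them they ranked 1 (PER7), 5 (PER44) and 8 (PER35) from the lowest of 15834 tested probe sets, with no test attached, and the next class III peroxidases were PER72 at rank 36 and PER56 at rank 56.

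Class III peroxidases are secreted plant enzymes that use hydrogen peroxide to oxidise substrates in the cell wall, and can also produce reactive oxygen species there. Through both activities they can stiffen or loosen the wall, and the balance is tied to whether root cells divide, elongate or differentiate. PER44 is known in Arabidopsis as one of the peroxidases that act in root hair growth. In the TAIR10.1 gene table, used for gene names and order only, PER43 lies 3 genes from PER44 on chromosome 4, and no class III gene lies within 5 genes of PER7 on chromosome 1 or PER35 on chromosome 3.

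Roots of 6-day-old seedlings were cut with a razor blade into the meristematic zone at the tip and the elongation zone above it, and roughly 60 roots were pooled for each replicate. Wild-type Col-0 was compared with the mutant upb1-1 and with a line called OX below (OXUPB1-2 in the sample titles), which carries 35S::UPB1-3YFP #2 on top of the upb1-1 mutation. OX is a single transgenic line in which the 35S promoter, a viral promoter active in most plant cells, drives UPB1 fused to yellow fluorescent protein, and upb1-1 and OX share the upb1-1 mutation. Each of the 6 groups of genotype and zone had 2 biological replicates grown without treatment, which makes 12 arrays.

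UPB1 (AT2G47270), a basic helix-loop-helix transcription factor, had signals of 528 to 1379 on the 4 Col-0 arrays, 8.53 to 16.8 on the 4 upb1-1 arrays and 28.1 to 55.2 on the 4 OX arrays. The low OX signals go against the label of an overexpressing line, and it is not known here whether this probe set detects the transgene, so OX below means the arrays labelled so. The mean log2 ratio of 3' to 5' signal of 3 control transcripts, a sign of RNA length, was 2.22 on the Col-0, 2.04 on the upb1-1 and 4.17 on the OX meristematic arrays, and between 3.93 and 4.04 in the 3 elongation groups. Of 10 markers of dividing cells and the stem cell niche, 3 had a named probe set (AUR1, AUR2 and BBM), and their summed signal differed by zone and by genotype. On the meristematic arrays it was 705 to 729 in Col-0, 688 to 705 in upb1-1 and 1258 to 1300.1 in OX. On the elongation arrays it was 251 to 362 in Col-0, 137 to 194 in upb1-1 and 224 to 246 in OX.

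Signals are linear MAS5 values in arbitrary units, each array scaled by the authors to a common mean. All differences below are differences of log2(signal + 16), which compress changes of dim probe sets. The 40th percentile of signal lay between 26.2 and 36.5 on the 12 arrays. PER7 reached its array's 40th percentile on 10, PER44 on 8 and PER35 on 6 of the 12 arrays. No detection calls were used, so it is not known whether signals below it exceed the background of the array.

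In Col-0, PER7 had a signal of 1258 on meristematic array 1 and 1235 on array 2, against 210.3 and 471 on the elongation pair. In upb1-1 its meristematic signals were 1089 and 1262, and its elongation signals 3127 and 5553. In OX its meristematic signals were 2.09 and 3.35, and its elongation signals 40.3 and 44.4. The order of the groups was therefore upb1-1 elongation, then the Col-0 and upb1-1 meristematic groups, whose replicates overlapped, then Col-0 elongation, OX elongation and OX meristematic. The span was wide within the arrays too, from percentile 3.66 of all signals on an OX meristematic array to percentile 99.2 on an upb1-1 elongation array.

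The PER35 probe set gave Col-0 signals of 295 and 206 from meristematic and 2.08 and 8.36 from elongation pieces. Its upb1-1 signals were 201 and 217 for meristematic pieces, against 548 and 903 for elongation pieces. Its OX signals were 2.89 and 3.30 for meristematic pieces, against 2.18 and 6.60 for elongation pieces. Its level was highest in upb1-1 elongation zones, next in the Col-0 and upb1-1 meristematic zones, whose replicates overlapped, and near the floor in the remaining 3 groups, which overlapped one another.

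PER44 gave 666 and 627 in meristematic pieces of Col-0, and 51.0 and 98.4 in elongation pieces. For upb1-1 these signals were 468 and 645, then 779 and 1004. For OX they were 15.6 and 19.6, then 9.02 and 1.83. The order was upb1-1 elongation, the overlapping Col-0 and upb1-1 meristematic groups, Col-0 elongation, OX meristematic and OX elongation, and all 4 OX arrays lay below the 40th percentile of their array.

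**Figure D1:**
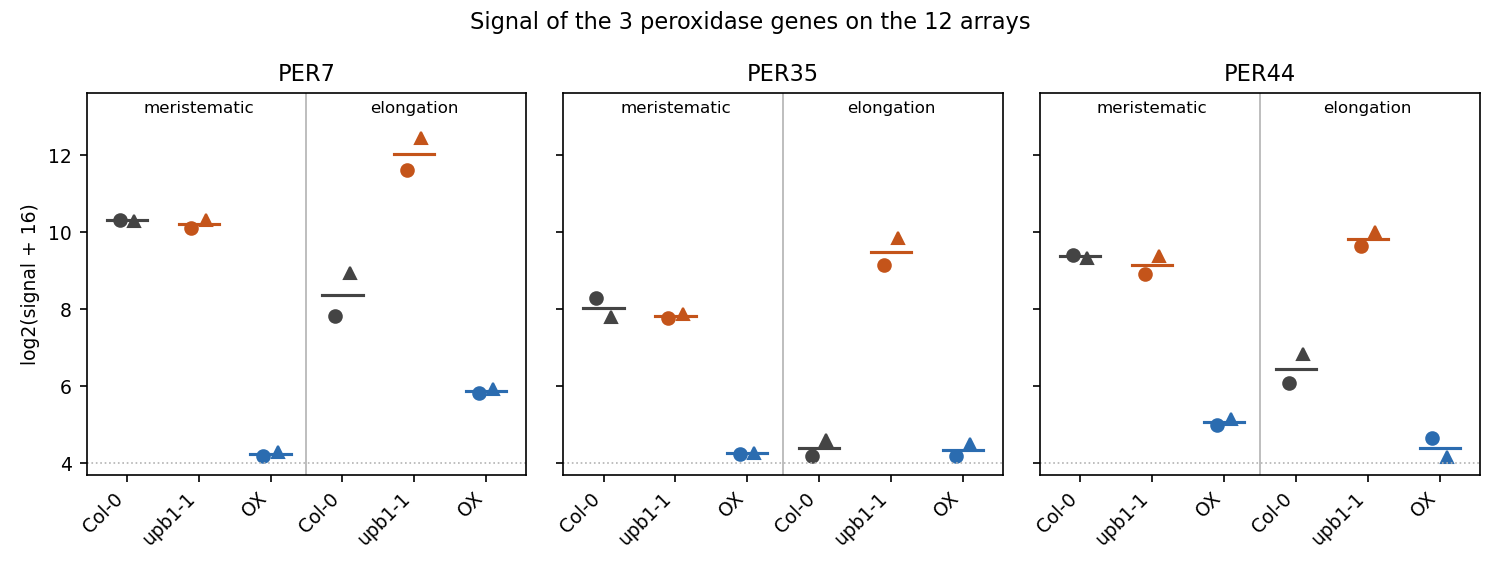
Signal of PER7, PER35 and PER44 on each array, as log2(signal + 16), by genotype within the meristematic (left) and elongation (right) zone. Circles are replicate 1, triangles replicate 2, bars group means, and the dotted line is the value of a signal of 0. In each panel the upb1-1 elongation arrays are the highest, and the OX arrays lie below all Col-0 and upb1-1 meristematic arrays.

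In wild-type roots all 3 peroxidases were more abundant in the pieces cut as the meristematic zone than in those cut as the elongation zone. This comparison asks where the genes are expressed when UPB1 is intact, and its 4 Col-0 arrays had no part in choosing the genes. PER35 fell by 3.65 (log2, SE 0.27, adjusted p = 9.14e-07) from the meristematic to the elongation zone, PER44 fell by 2.92 (SE 0.26, adjusted p = 3.33e-06) and PER7 fell by 1.93 (SE 0.30, adjusted p = 0.000197). The p-values are from limma, adjusted by the Benjamini-Hochberg method over 15834 probe sets. All 3 genes passed downward, against 22.8% of all tested probe sets. The size for PER35 rests on Col-0 elongation signals below the 40th percentile of their arrays, and was -5.53 with 1 added and -2.17 with 64 added, where PER44 gave -3.17 and -2.38, so that the order of these genes by size turns with the constant. The 3 genes were among the 6 lowest of the 33 tested class III peroxidases with 16 added. The 3 dividing-cell markers also fell towards the elongation zone (-1.69 to -0.81), and the control ratio differed by zone (2.22 and 3.93), and their part in these differences was not tested. In whole pieces of root, fewer cells of a type and less RNA per cell cannot be told apart. The number of probe sets called in either direction was 6382, and 4015 without Col-0 meristematic replicate 1.

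In the meristematic zone no difference between upb1-1 and Col-0 was detected for any of the 3 genes. The upb1-1 minus Col-0 differences were -0.09 for PER7 (95% interval -0.73 to 0.56), -0.23 for PER35 (-0.80 to 0.35) and -0.23 for PER44 (-0.79 to 0.33). None passed in limma (adjusted p = 1.00 for each, with unadjusted p of 0.776, 0.416 and 0.403), where 0.0379% of all probe sets were called in either direction. All 3 intervals lie within 1 log2 unit of 0. The 6 probe sets called in this comparison fell to 3 when Col-0 replicate 1 or either upb1-1 array was left out, and 264 had an unadjusted p below 0.05.

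On the OX arrays of the meristematic zone all 3 peroxidases were close to the floor. PER7 fell by 6.08 (log2, SE 0.30, adjusted p = 1.61e-09 by limma) against Col-0, PER44 fell by 4.30 (SE 0.26, adjusted p = 1.31e-08) and PER35 fell by 3.78 (SE 0.27, adjusted p = 6.71e-08). Against upb1-1, the stated background of the line, PER7 fell by 5.99 (adjusted p = 1.72e-09), PER44 by 4.08 (adjusted p = 2.08e-08) and PER35 by 3.56 (adjusted p = 1.12e-07). The groups did not overlap for any of the 3 genes, a description given without the share over all tested probe sets. Both comparisons use the same OX arrays, on which 23.5% of probe sets were called lower than in Col-0 and 24.5% lower than in upb1-1. The summed signal of the dividing-cell markers was higher on the same arrays, where 26% of all tested probe sets rose against Col-0 and 27.5% against upb1-1. AUR1, a mitotic Aurora kinase, rose by 0.86 against Col-0 (adjusted p = 0.00581, limma) and BBM, a transcription factor of the root stem cell niche, by 1.12 (adjusted p = 0.00290), while AUR2, another Aurora kinase, gave 0.63 (adjusted p = 0.0556). Against upb1-1 all 3 rose (0.72 to 0.91). The 3' to 5' control ratio on the OX arrays was 4.17 against 2.22 and 2.04, and the part of the markers and of this ratio in the falls was not tested. The sizes depend on the constant added before the logarithm. With 1 added the differences from Col-0 were -8.41 for PER7, -5.13 for PER44 and -5.92 for PER35, and with 64 added -4.30, -3.12 and -2.21.

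In the elongation zone all 3 genes were highest in upb1-1, and PER7 and PER44 were lowest in OX. These comparisons contain the arrays that chose the genes and are given without a test. From Col-0 to upb1-1 the signal of PER7 went from 341 ± 185 to 4340 ± 1715 (SD, n = 2), a difference of 3.66 (SE 0.30). PER44 went from 74.7 ± 33.5 to 891 ± 159 (SD, n = 2), a difference of 3.36 (SE 0.26). PER35 went from 5.22 ± 4.44 to 726 ± 251 (SD, n = 2), a difference of 5.10 (SE 0.27), which is set by a Col-0 signal near the floor and became 7.04 with 1 added and 3.48 with 64 added. The arrays of upb1-1 lay above those of Col-0 for each gene, a description given without the share over all tested probe sets. Of the dividing-cell markers AUR1 gave -0.83, AUR2 -0.91 and BBM 0.30 for upb1-1 minus Col-0 here, and their part in the differences was not tested.

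From Col-0 to OX in the elongation zone, the difference was -2.51 (SE 0.30) for PER7 and -2.05 (SE 0.26) for PER44. The arrays did not overlap for either gene, which is also given without the share over all tested probe sets. The OX signals of PER44 lay below the 40th percentile of their arrays, and its difference was -3.76 with 1 added and -0.98 with 64 added. PER35 gave -0.05 (95% interval -0.63 to 0.53), with both groups near the floor and overlapping. The control ratio was 3.93 in Col-0, 4.04 in upb1-1 and 3.97 in OX elongation arrays. The differences that defined the choice, OX minus upb1-1, were -6.17 for PER7, -5.41 for PER44 and -5.15 for PER35.

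The direction of the zone difference was opposite in upb1-1 and Col-0. In upb1-1 the elongation arrays were above the meristematic arrays by 1.82 (SE 0.30) for PER7, by 1.68 (SE 0.27) for PER35 and by 0.67 (SE 0.26) for PER44, whereas in Col-0 all 3 genes were lower there. In OX the zone difference was 1.64 for PER7, 0.09 for PER35 with overlapping arrays, and -0.67 for PER44, all from signals of at most 44.4. These values also move with the constant, to 3.56 and 0.67 for PER7 and to -1.80 and -0.23 for PER44 with 1 and 64 added. Both Col-0 elongation arrays below both meristematic arrays, together with the reverse in upb1-1, was found for 3.03% of tested probe sets (480) and for 6 of the 33 class III peroxidases. These were PER7, PER35 and PER44 and, named after their values were seen, PER47, PER56 and PER66. PER7, PER35 and PER44 were chosen for high signal on the upb1-1 elongation arrays. The 6 of 33 is therefore no measure of the family against all tested probe sets.

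**Figure D2:**
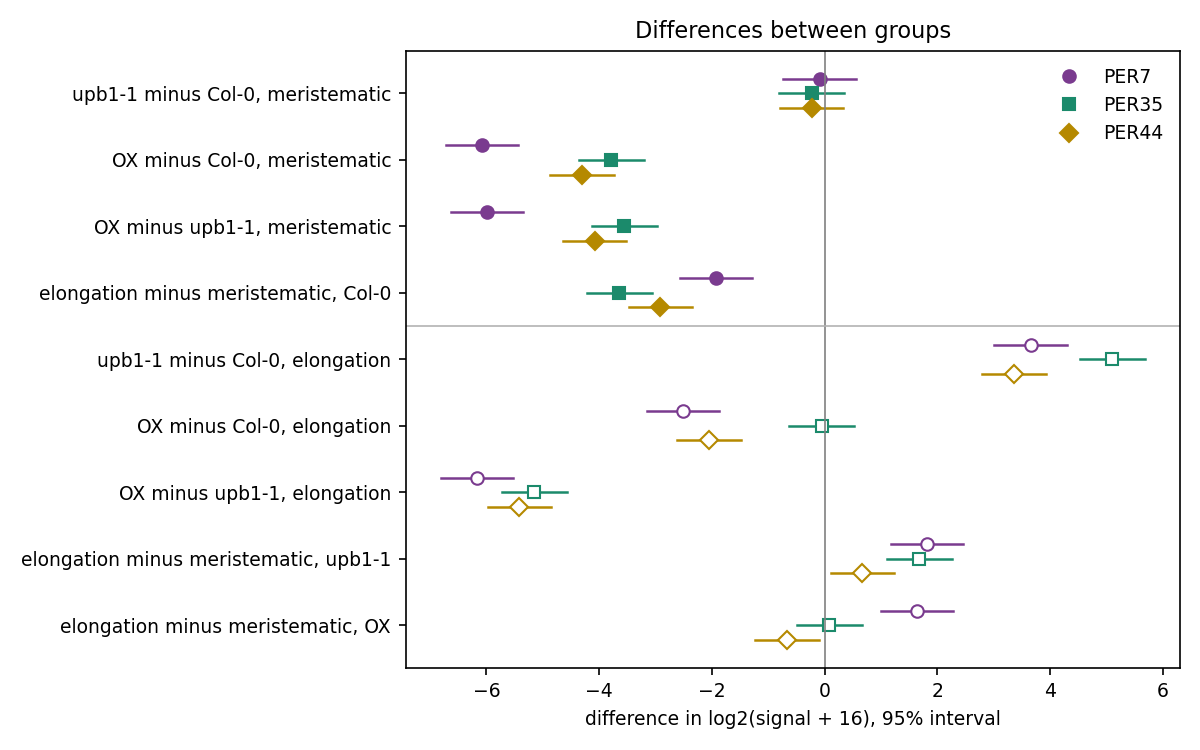
Differences of log2(signal + 16) between groups for PER7, PER35 and PER44, with 95% intervals from limma on 12 arrays. Filled symbols above the line are comparisons that were tested, open symbols below it are comparisons that contain the arrays that chose the genes. The intervals of the open symbols show the spread of the fit and are no test, because these arrays had a part in the choice. In upb1-1 against Col-0 the 3 genes lie near 0 in the meristematic zone and between 3.36 and 5.10 in the elongation zone.

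The genes also differed among themselves. In the elongation zone the Col-0 arrays overlapped the OX arrays for PER35, and lay above them for PER7 and PER44. Signals of different probe sets are not on a shared scale, so this does not order the genes by level. In OX, the elongation arrays lay above the meristematic arrays for PER7, overlapped them for PER35 and lay below them for PER44. Replicate 2 was above replicate 1 for all 3 genes in both the Col-0 and the upb1-1 elongation groups, by ratios of 2.24 and 1.78 for PER7, 4.02 and 1.65 for PER35, and 1.93 and 1.29 for PER44. Over the 12 arrays, Pearson's r of log2(signal + 16) was 0.95 between PER35 and PER44, 0.94 between PER7 and PER44 and 0.90 between PER7 and PER35. Over the 8 arrays outside the upb1-1 and OX elongation groups it was 0.97, 0.93 and 0.82. These are descriptions over arrays that fall into groups, and no p is attached.

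Of the 70 other class III peroxidases 52 had a named probe set and 30 were bright enough to be tested. In the Col-0 zone comparison 9 of the 30 rose towards the elongation zone, 5 fell and 16 did not pass. Their median was 0.08 against -0.06 over all tested probe sets, of which 17.5% rose and 22.8% fell. In the OX meristematic zone 18 fell, 2 rose and 10 did not pass against Col-0 (median -0.81, against 0.10 over all). Of all tested probe sets 23.5% fell and 26% rose in that comparison. The counts against upb1-1 were the same (median -0.85, against 0.11 over all), where 24.5% of all fell and 27.5% rose. In the upb1-1 meristematic zone none of the 30 passed in limma (median -0.06, against 0.00 over all), 1 had an unadjusted p below 0.05, and 1 passed when only the 4 arrays compared were fitted. In the elongation zone, described without a test, the median of the 30 was 0.20 for upb1-1 minus Col-0 with a range of -0.77 to 2.34, below the values of PER7, PER35 and PER44. For OX minus Col-0 it was -0.30, with a range of -2.01 to 0.61. PER7, PER35 and PER44 were chosen for high signal on the upb1-1 elongation arrays. Their place above the other 30 for upb1-1 minus Col-0 is therefore favoured by the choice and is no separate result. The list was drawn up with earlier results of these data known.

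**Figure D3:**
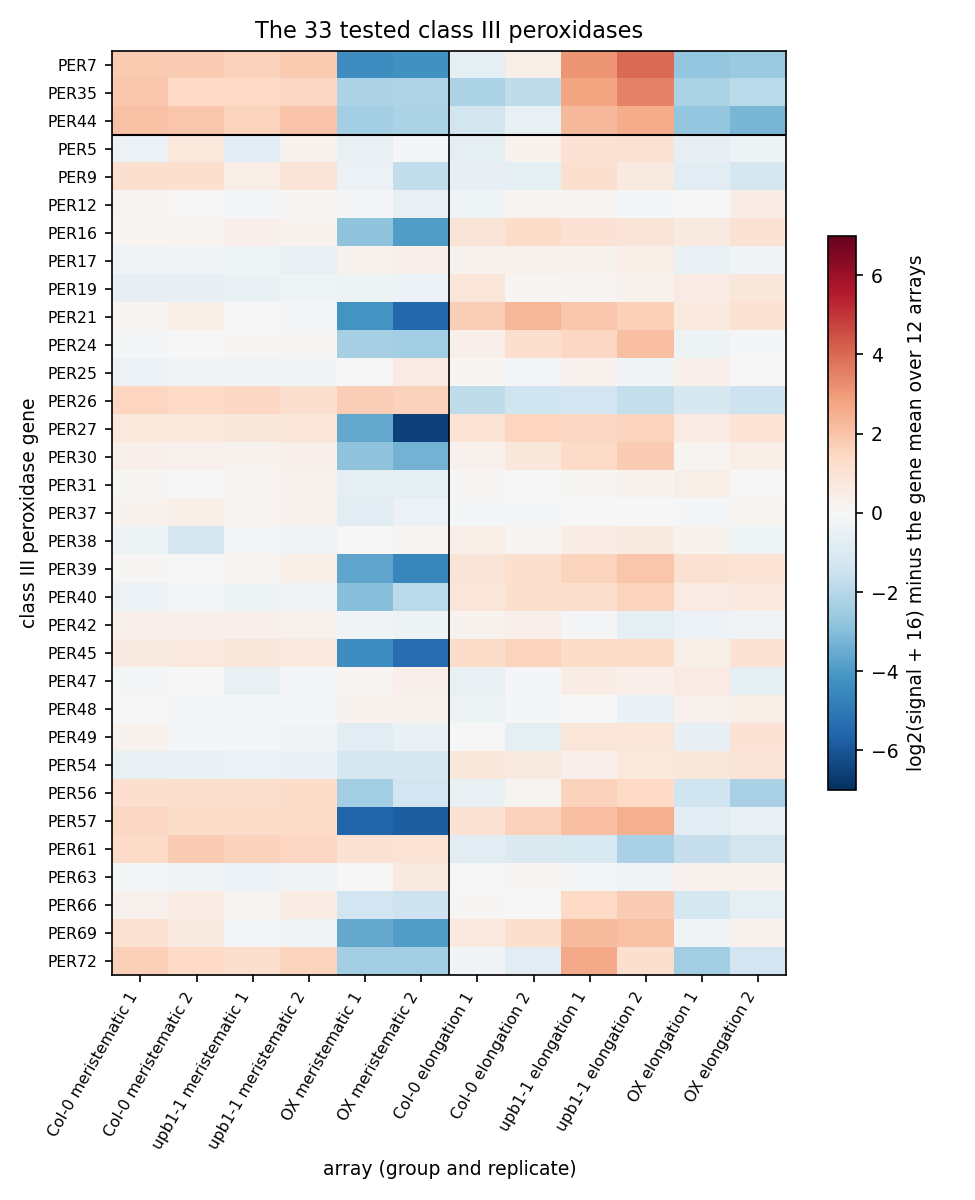
Heat map of the 33 tested class III peroxidases (rows, with PER7, PER35 and PER44 above the line) on the 12 arrays (columns), coloured by log2(signal + 16) minus the gene's mean over the arrays, which ranged from -6.54 to 3.94. The 3 genes are high in Col-0 and upb1-1 meristematic and in upb1-1 elongation arrays. Of the 30 other peroxidases 18 fell in the OX against the Col-0 meristematic arrays, where 23.5% of all tested probe sets fell.

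PER39, PER40 and PER57, which the study itself linked to UPB1, are set beside the 3 genes here. PER39 rose by 0.99 (adjusted p = 0.00425, limma) and PER40 by 1.23 (adjusted p = 0.00287) from the meristematic to the elongation zone of Col-0. PER57 gave -0.04 (adjusted p = 0.889, limma). Of all tested probe sets 17.5% rose in that comparison. In the elongation zone the mean signal of PER39 was 2340 in Col-0, 3900 in upb1-1 and 2317 in OX. That of PER57 was 3445 in Col-0, 6661 in upb1-1 and 832 in OX. That of PER40 was 282 in Col-0, 383 in upb1-1 and 218 in OX. In the OX meristematic zone all 3 fell against Col-0, as PER7, PER35 and PER44 did, where 23.5% of all tested probe sets fell. The differences were -7.06 for PER57 (adjusted p = 3.00e-11, limma), -4.16 for PER39 (adjusted p = 6.56e-09) and -2.16 for PER40 (adjusted p = 2.01e-05). PER39, PER40 and PER57 are among the 18 of the 30 other class III peroxidases that fell there. Whether the genes differ in their response was not tested.

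NADPH oxidases make the superoxide from which the peroxidases' hydrogen peroxide can form, and 3 of 10 had a named probe set (RBOHE, RBOHG and RBOHI). From the meristematic to the elongation zone of Col-0, 1 of the 3 fell and 2 did not pass (median -0.58, against -0.06 over all tested probe sets, of which 22.8% fell). In the OX meristematic zone 2 fell and 1 did not pass against Col-0 (median -1.58, against 0.10 over all, of which 23.5% fell). None passed in limma in the upb1-1 meristematic zone, and 0 had an unadjusted p below 0.05 (median -0.54, against 0.00 over all). In the elongation zone the median was 1.22 for upb1-1 minus Col-0 (-0.02 over all) and -0.33 for OX minus Col-0 (0.02 over all), without a test.

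Root hairs are outgrowths of epidermal cells, and genes of hair cells were followed as markers of a cell type that the cut pieces could hold in different amounts. Of 15 such markers 3 had a named probe set, the expansins EXPA7 and EXPA18, which loosen hair cell walls, and GH9C1, of the endoglucanase family. Their summed signal in Col-0 was 1252.7 and 1164 for meristematic pieces, then 276 and 489 for elongation pieces. In upb1-1 the sums were 1020.2 and 1188, then 2525 and 5172. In OX they were 48.2 and 34.9, then 63.2 and 79.8. Like the 3 peroxidases, the sums were highest in upb1-1 elongation, next in the Col-0 and upb1-1 meristematic groups, and low in OX. The Col-0 elongation sums lay above all OX sums, whereas PER35 was near the floor there. Within OX the sums were higher in elongation than in meristematic pieces, whereas PER44 was lower. Of the single markers EXPA7 (1.00) and GH9C1 (0.41) were higher there, and EXPA18 (-0.37) was lower, as PER44 was, all from low signals. Replicate 2 was above replicate 1 in both the Col-0 and the upb1-1 elongation groups.

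All 3 markers fell from the meristematic to the elongation zone of Col-0, with -1.10 for EXPA7, -1.89 for GH9C1 and -2.26 for EXPA18, where 22.8% of all tested probe sets fell. All 3 also fell in OX meristematic zones against Col-0, where 23.5% of all fell, with values from -4.27 to -3.46. None passed in limma in the upb1-1 meristematic zone, where 0 had an unadjusted p below 0.05. In the elongation zone the differences of upb1-1 from Col-0 were 2.64 for EXPA7, 3.60 for GH9C1 and 3.62 for EXPA18. The markers' part in the differences of PER7, PER35 and PER44 was not tested. The markers of non-hair epidermis, xylem and root cap had no named probe set. The endodermal marker GSO1, 1 of 4 on its list, fell by 1.90 in the OX against the Col-0 meristematic zone and gave 1.04 for upb1-1 minus Col-0 in the elongation zone.

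**Figure D4:**
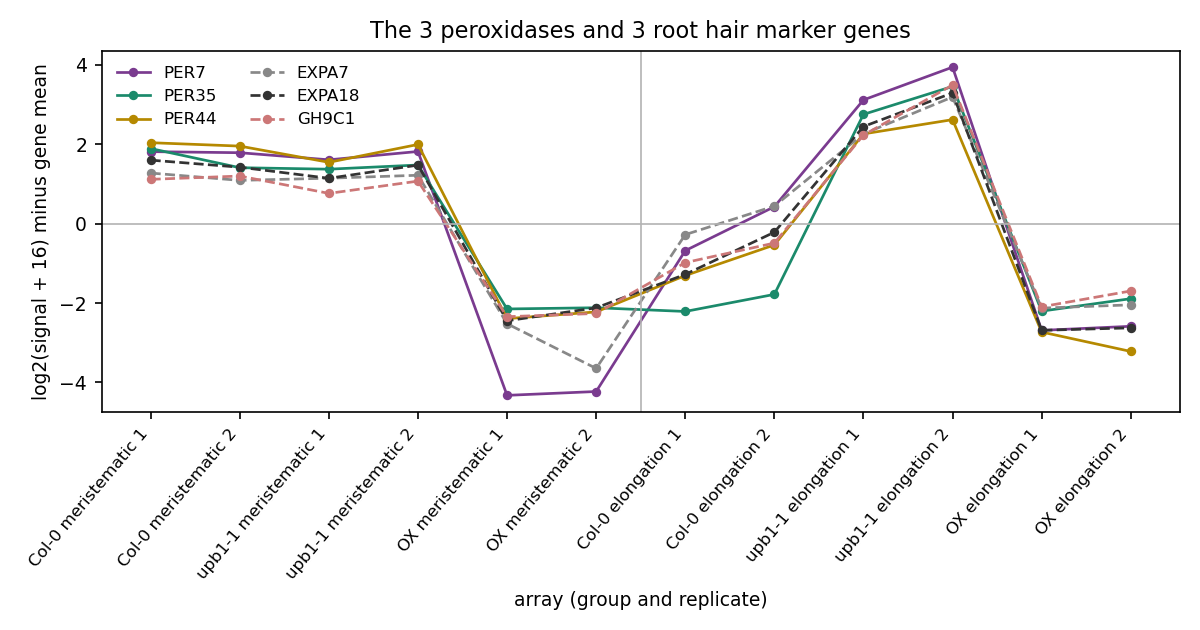
Levels of PER7, PER35 and PER44 (solid lines) and of the root hair markers EXPA7, EXPA18 and GH9C1 (dashed lines) on the 12 arrays, as log2(signal + 16) minus each gene's mean. Lines join the points of 1 gene and imply no order of the arrays. The 6 genes are highest on the upb1-1 elongation arrays and low on all OX arrays, and PER35 is also low on the Col-0 elongation arrays.

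The genes most like each peroxidase were taken as the 5 with the highest Pearson's r over the 12 arrays among 8866 tested probe sets with 1 named gene. For PER7 these were AT1G19900 (r = 0.996), EXPA7 (0.990), AT5G65530 (0.981), the AP2/ERF transcription factor gene tny, known as TINY (0.979), and the cold-induced dehydrin gene COR47 (0.979). AT1G19900 had mean signals of 478 and 207 in the Col-0 meristematic and elongation zones, 449 and 1687 in upb1-1, and 4.11 and 32.0 in OX. Over the 8 arrays outside the upb1-1 and OX elongation groups the r of AT1G19900 with PER7 was 0.996 and its rank among all tested probe sets went from 1 to 3. That of EXPA7 was 0.984 and its rank went from 4 to 78. The ranks of AT5G65530, tny and COR47 went from 5, 9 and 10 to 76, 49 and 107. Their r over the 8 arrays was 0.984, 0.987 and 0.981, not below that over the 12 arrays. The ranks of these genes thus fell while their r with PER7 did not.

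For PER35 the most similar genes were AT3G12540 (r = 0.994), AT1G34330, annotated as a transcribed pseudogene (0.989), AT4G05170 (0.977), AT1G43020 (0.972) and AT5G04960 (0.972). AT3G12540 had mean signals of 114 and 6.76 in the Col-0 meristematic and elongation zones, 90.7 and 209 in upb1-1, and 2.43 and 2.84 in OX. It shared with PER35 the low level in the elongation zone of Col-0. Over the 8 arrays it ranked 2 for PER35, and the other 4 genes ranked 14 (AT5G04960) to 148 (AT1G43020).

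For PER44 they were EXPA18 (r = 0.984), AT5G37540 (0.973), the class III peroxidase PER56 (AT5G15180, 0.969), AT4G33730 (0.968) and AT3G12540 (0.965). Over the 8 arrays AT5G37540 ranked 2 and EXPA18 ranked 3, and the other 3 genes 53 (AT3G12540) to 235 (PER56). PER56 had mean signals of 190 and 68.1 in the Col-0 meristematic and elongation zones, 200.1 and 245 in upb1-1, and 10.5 and 10.9 in OX. UPB1 gave r = 0.01 with PER7, -0.28 with PER35 and -0.05 with PER44. Over the 8 arrays its r was 0.24, -0.17 and 0.0025. The UPB1 signal was low on all upb1-1 and OX arrays, and whether its probe set detects the transgene is not known here. These r values therefore do not show how the peroxidases relate to UPB1 in OX. All points of these correlations share the 6 groups and their replicates, so r mostly reflects the group means.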

How the data were processed

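The deposited values are probe set signal intensities that the authors made with MAS5, per the submitters' processing notes, from RNA amplified in a two-cycle procedure, per the labels' protocols. The version and the genome build are not given in the sources used here. Of 22810 probe sets 64 controls were left out. Signals were taken to log2 after adding 16. Probe sets at or above an array's 40th percentile on 2 or more of the 12 arrays were tested (15834). limma 3.58.1 in R 4.3.3 fitted 6 group means (lmFit, then eBayes with a variance trend), two-sided, with Benjamini-Hochberg adjustment and a threshold of 0.05. The fit was tested on simulated data. The number of arrays limits the precision.

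The genes, lists and tests were chosen with earlier results of these data known. Comparisons holding the upb1-1 or OX elongation arrays got no test. Named genes are the 3 peroxidases in every group, the 5 genes most like each, UPB1, PER39, PER40, PER57, and root hair markers. Relatives by protein sequence were part of the rule and were not analysed here, and PER1 and PER73 have no named probe set here. Gene names come from the platform annotation (14016 probe sets) through a TAIR10.1 gene table. It names 1 gene for 8866 (56.0%) of the tested probe sets. The brightest probe set stood for a gene. Alternatives were the added constant, the filter, 2 scalings, the variance trend, the arrays fitted, a replicate block and leaving out each array.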

Additional observations from a re-analysis of the deposited data

Results flagged for a closer look

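For PER7, PER35 and PER44 the zone difference had opposite signs in Col-0 and upb1-1 on every array. The elongation minus meristematic difference in upb1-1 exceeded that in Col-0 by 3.74 (log2) for PER7, by 5.33 for PER35 and by 3.59 for PER44. For PER7 the zone difference in OX also had the opposite sign to that in Col-0, with a difference of 3.57. For PER44 the zone differences in OX and upb1-1 had opposite signs, with OX minus upb1-1 at -1.34, and the 4 OX signals behind it were at most 19.6, so that these OX zone differences depend on the constant added before the logarithm. The difference was not tested in any of these cases, because each holds arrays that chose the genes.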

How the results depend on the processing

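For PER7, PER35 and PER44 all 9 tested calls (both OX comparisons of the meristematic zone and the zone comparison of Col-0) kept their direction and an adjusted p below 0.05 in limma under each of the 12 alternatives. Their highest adjusted p was 0.00377, for PER7 between the zones of Col-0. The differences of upb1-1 from Col-0 in the meristematic zone passed under none, and leaving out 1 array each gave -0.19 to 0.018 for PER7, -0.47 to 0.015 for PER35 and -0.45 to -0.0017 for PER44. The number of probe sets called there was 16, and that of other class III peroxidases 1, when only the arrays compared were fitted, and 3 to 4 probe sets were called with 1 array left out. Between the zones of Col-0 the count was 4015 to 5288 with 1 array left out. The other counts stayed within 1.5 times. Adding 1 or 64 in place of 16 moved sizes that rest on signals near the floor, with PER44 in OX minus Col-0 of the elongation zone at -3.76 and -0.98. For brighter signals leaving out 1 array moved sizes more, with PER7 between the zones of Col-0 at -2.48 to -1.37 against -1.98 and -1.77 for these constants.

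Labels give the groups the same replicate numbers, but same-numbered arrays mostly did not deviate together, with a correlation above 0.1 in 2 of 15 pairs of groups (-0.15 to 0.28). The highest, 0.28, was between the Col-0 and the upb1-1 elongation groups. In both of these groups replicate 2 was above replicate 1 for PER7, PER35 and PER44. With the replicate number as a block 6391 probe sets were called between the zones of Col-0, 7884 in OX against Col-0, 8247 in OX against upb1-1 and 7 in upb1-1 against Col-0. Each gene had 1 probe set, so no choice between probe sets arose.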
